A study of Drosophila melanogaster with 3 samples.

Results

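Sox family genes are the 8 genes of Drosophila melanogaster that encode a transcription factor with a Sox-type HMG box: Sox14, Sox15, SoxN, D (Dichaete), Sox21a, Sox21b, Sox100B and Sox102F. They are 8 of the 13945 protein-coding genes on the 6 chromosome arms, and they were chosen by name, with Sox14 set apart from its relatives because its signal was already known to be high. The values below were recovered with Dad, the inhibitory Smad that restrains signalling by the BMP ligand Dpp. Whole embryos aged 0 to 24 h, of both sexes pooled, came from the transgenic Dad-GFP line, which stably carries Dad with GFP at its C terminus (Dad-eGFP). Their chromatin was sonicated to 200 to 800 bp, precipitated with an anti-GFP antibody and sequenced. There were 3 biological replicates and 1 group, with no other genotype or treatment, so the question is where the tagged protein was recovered at these genes and no comparison between groups exists.

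Sox proteins bind the minor groove of DNA through the HMG box and bend it sharply, and most of them act together with partner factors. SoxN and D are the group B genes that pattern the early neuroectoderm and central nervous system of the embryo, and D also acts in segmentation. Sox21a, another group B gene, acts in the stem cell lineage of the adult midgut, and Sox21b is its neighbour and close relative. Sox14, of group C, is induced by the steroid hormone ecdysone and is needed at metamorphosis, including the pruning of dendrites. Sox102F (group D) acts in neurons, Sox100B (group E) in the gonad, and Sox15 (group F) in sensory organs and the wing.

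The authors' optimal list held 3392 peaks that passed their IDR threshold (irreproducible discovery rate, a measure of how well replicates agree). Signal is the authors' value per region, and it ran from 80.7 to 1827 with a median of 121.7 over these peaks. The files also held 30000 regions called on the pooled replicates, background included, and 30000 on each replicate. A replicate's signal is given here relative to that replicate's median over the optimal peaks (42.6, 35.6 and 51.1 in replicates 1, 2 and 3), and a top region is one of the 3392 of highest signal in a replicate. A region was given to a gene when its summit lay in the gene or within 5 kb of it. Embryos were used whole, so recovery in fewer cells and weaker recovery per cell cannot be told apart, and read depth is unknown.

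Of the 8 Sox genes, 6 had an optimal peak in the gene or within 5 kb (Sox14, Sox15, Sox21a, Sox21b, Sox100B and Sox102F), while SoxN and D had none. Sox21a and Sox21b were counted through the same peak. In the windows of Sox100B and Sox15 the strongest peak lay at the promoter of a neighbouring gene. By the same rule 43.4% of all protein-coding genes had one. A peak near a gene need not belong to it, and closer rules gave fewer genes. Sox14 and Sox102F were the 2 members with a peak within 500 bp of one of their own transcription start sites (TSSs), as had 18.4% of coding genes. A single member, Sox102F, had a peak in the gene body, as had 9.92% of coding genes. Sox14, Sox21a and Sox102F were the 3 that held a peak or had the coding TSS nearest to it, as did 18.9%. At 500 bp from the gene the shares were 25.0% of Sox genes and 23.5% of coding genes, at 2 kb 37.5% and 31.3%, at 10 kb 87.5% and 56.9%, and at 20 kb all 8 Sox genes and 71.2% of coding genes had a peak. Sox genes are long, with a median of 8700 bp and a range of 3011 to 33958 bp, against a median of 2166 bp over coding genes, and longer genes offer more sequence to every rule that counts the gene body. The part of gene length in these shares was not tested.

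**Figure D1:**
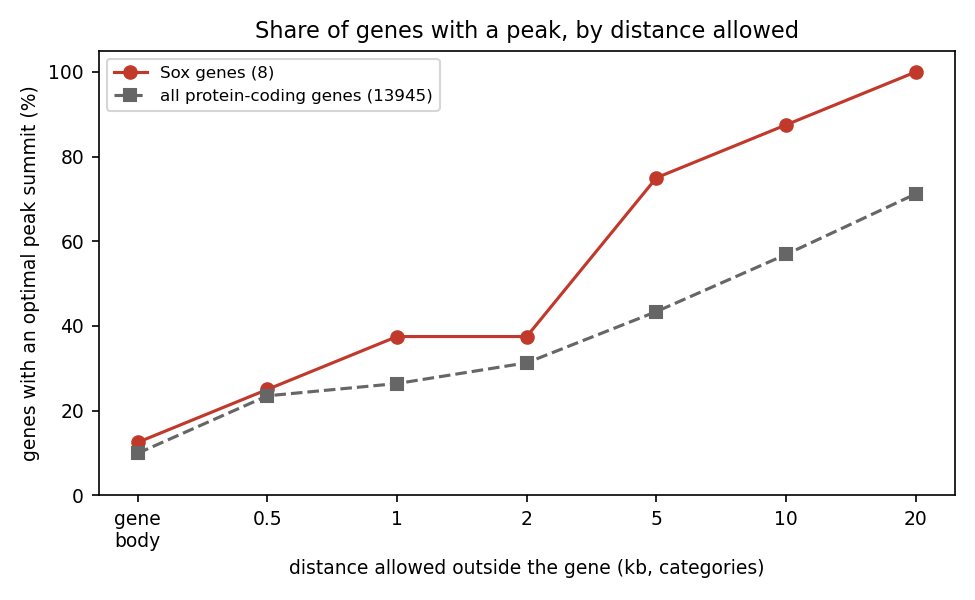
Share of genes with an optimal peak summit in the gene or within the distance allowed outside it (x axis, kb, as categories; y axis, percent), for the 8 Sox genes (red circles) and all 13945 protein-coding genes (grey squares). The Sox share is close to that of all genes up to 0.5 kb (25.0% and 23.5%) and is higher at 5 kb (75.0% and 43.4%). There 1 gene is 12.5 percentage points, and Sox21a and Sox21b count through the same peak.

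In single replicates the same window held a top region at 6 Sox genes in replicate 1, 6 in replicate 2 and 4 in replicate 3, a mean of 5.33 ± 1.15 (SD, n = 3). Among coding genes the shares were 43.6%, 42.0% and 42.6% in replicates 1, 2 and 3. The 4 genes with a top region in every replicate were Sox14, Sox15, Sox100B and Sox102F, and 31.6% of coding genes had one in every replicate. Sox21a and Sox21b, which share 1 peak, lost it from the top regions of replicate 3.

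Sox14 (FBgn0005612; 2R, 23978801 to 23985177, plus strand) carried by far the highest signal of the family. Its peak (2R, 23978390 to 23978742) had a signal of 750.7, which ranked 22 of 3392. Its summit at 23978539 lay between genes, 262 bp upstream of the first of the 3 TSSs of Sox14. The signal was 251.7, 186.4 and 310.7 in replicates 1, 2 and 3, where it ranked 30, 30 and 22 of 30000. Relative to each replicate's median this was 5.9, 5.24 and 6.08, or 5.74 ± 0.442 (SD, n = 3). The 3 replicates therefore lay close together, and their summits fell within 33 bp of one another. Their coefficient of variation was 7.7%, against a median of 23.1% over the 3365 optimal peaks matched in every replicate. Peaks of like size had a like spread. The 3 ranked just above and the 3 just below had SDs of 0.154 to 0.811 around mean relative signals of 5.68 to 6.49. Close replicates were thus not particular to Sox14. Of the 13945 coding genes, 66 (0.473%) had an optimal peak as strong in the gene or within 5 kb. These values are a description, since Sox14 was singled out for this signal.

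The rest of the Sox14 window was weak. Of its 11 pooled regions the peak alone was on the optimal list. The next strongest, with a signal of 74.9 (rank 3827), lay 1404 bp upstream of Sox14 but 142 bp from the TSS of PPP1R15, a regulatory subunit of protein phosphatase 1. Its relative signal was 0.485, 0.744 and 0.542 in replicates 1, 2 and 3 (0.59 ± 0.136, SD, n = 3). A region of 56.6 (rank 5936) lay 21 bp from the TSS of Phm, an enzyme of neuropeptide amidation, with a relative signal of 0.454 ± 0.0481 (SD, n = 3). Inside Sox14 the strongest region, in the coding sequence, reached 42.3, and the next, in the 5′ UTR, 39.4. Within 5 kb the high signal of the locus was thus a single narrow region of 353 bp, before the first TSS. The next optimal peak lay 10939 bp from the gene, 77 bp from the TSS of the gene named or (orange), with a signal of 135.7.

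**Figure D2:**
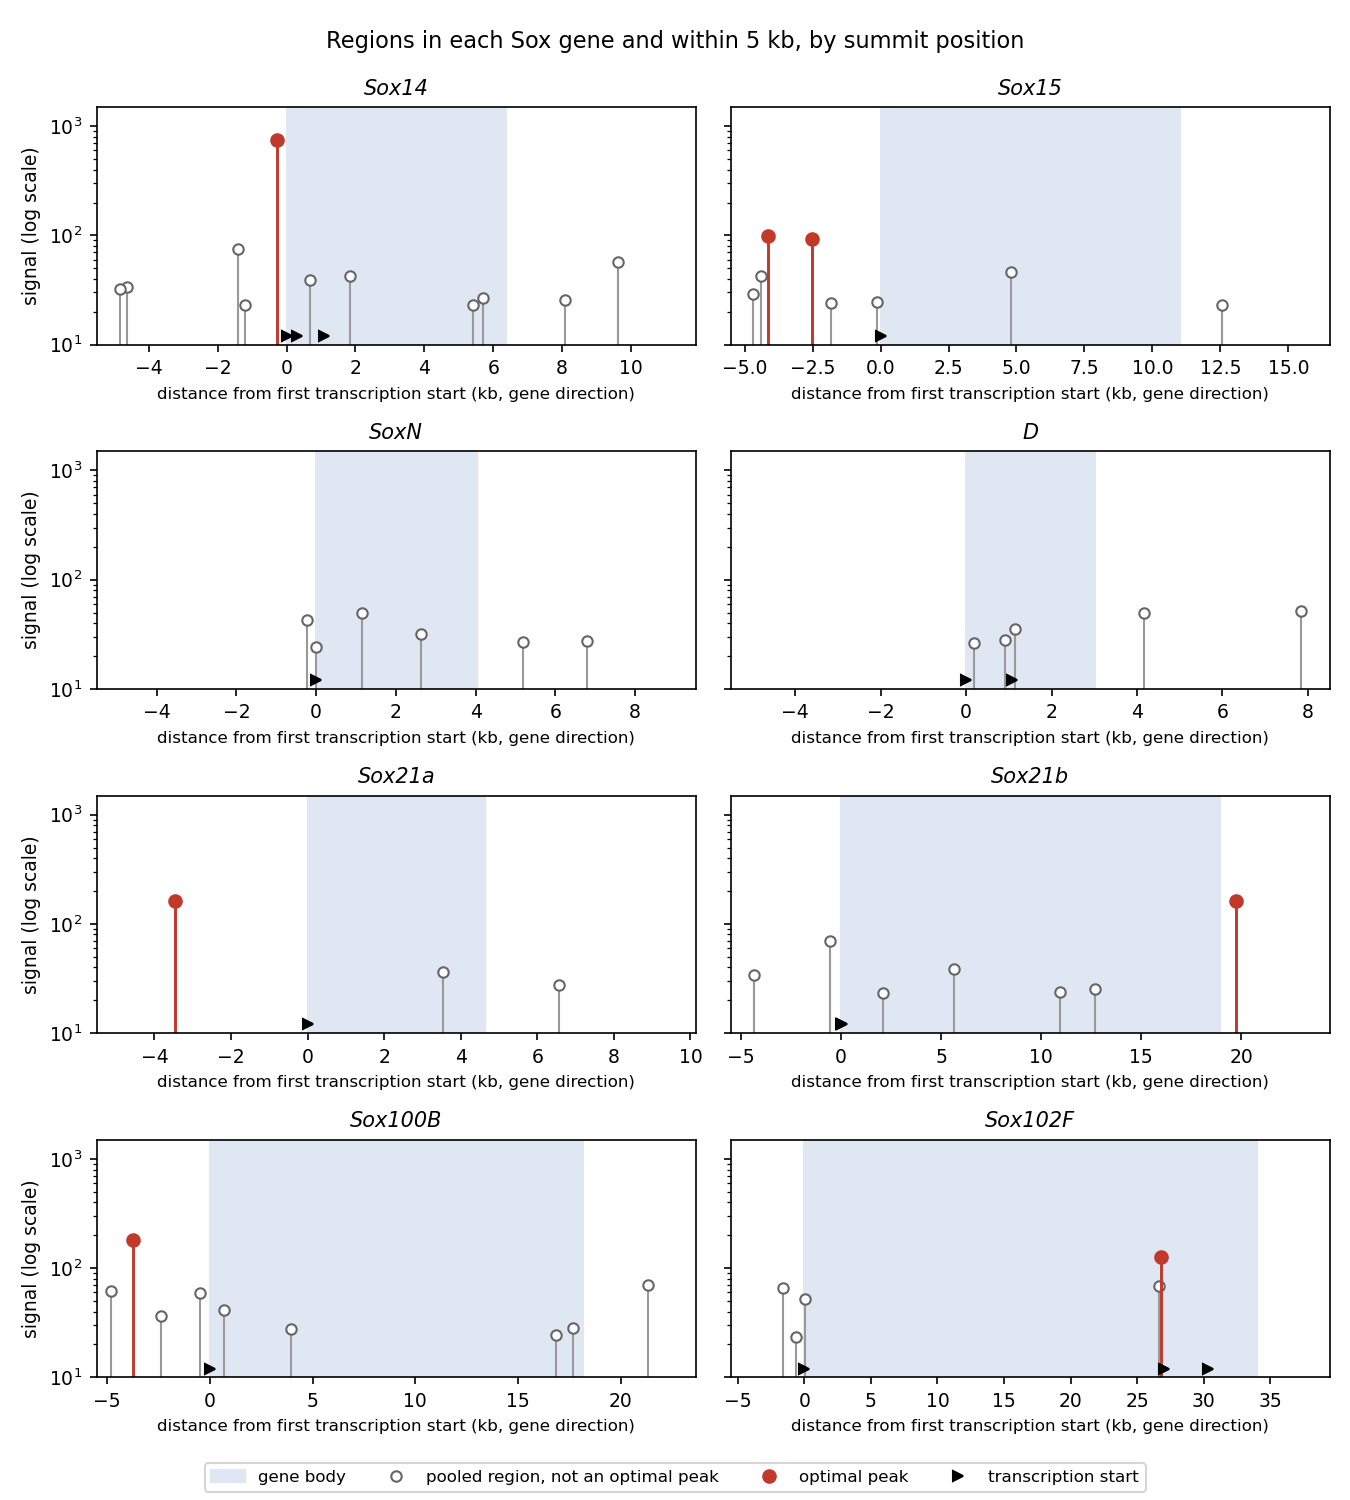
Summits of the pooled regions in each Sox gene and within 5 kb, with 1 panel per gene; the x axis is the distance from the first transcription start in kb along the gene's direction, and the y axis is the authors' signal on a log scale. Filled red points are optimal peaks, open points other pooled regions, shaded bands gene bodies and arrowheads transcription starts; Sox14 is the member with a peak just before its first start, the Sox102F peak lies by an internal start, and SoxN and D have open points alone.

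The coding genes with the TSS nearest to peaks of like size were of varied kinds. The 3 optimal peaks ranked just above that of Sox14 had signals of 841.4 (nearest coding TSS CG13323, 11978 bp away), 782.8 (GstE13, a glutathione S-transferase, 46 bp) and 772.4 (Atat, a tubulin acetyltransferase, 125 bp). The 3 ranked just below had 746.8 (Tlk, a protein kinase, 2319 bp), 741.6 (osa, a subunit of the Brahma chromatin-remodelling complex, 13949 bp) and 739.2 (mRpL23, a mitochondrial ribosomal protein, 88 bp). The peak of 741.6 lay in an exon of the noncoding gene lncRNA:CR46035. By the Euclidean distance of log2 relative signals over the 3 replicates, the peaks most like that of Sox14 were those nearest to mRpL23 (0.0683), Tlk (0.0706) and CG3552 (0.116). No other Sox gene could be among them, since the next strongest peak in a Sox window ranked 812 (182.1).

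The relatives had far lower signals, here given for the region of each window that was strongest in the pooled list, which was followed through the replicates. Sox14 exceeded the next member, Sox100B, 4.12-fold in the authors' pooled signal, and 3.05-, 4.64- and 4.75-fold in replicates 1, 2 and 3 (4.15 ± 0.952, SD, n = 3). It exceeded Sox102F 5.93-fold (5.54 ± 1.38 over the 3 replicates), Sox15 7.64-fold (6.94 ± 1.99), D 14.7-fold (14.6 ± 1.54) and SoxN 15.1-fold (16.7 ± 3.16). Of these regions, that of Sox100B lay 277 bp from the TSS of dco and that of Sox15 9 bp from the TSS of RpS23. The ratios to Sox100B and Sox15 are therefore to peaks at the promoters of neighbouring genes. The region at the promoter of Sox100B itself had a pooled signal of 59.7. The ratio to the peak of Sox21a and Sox21b was 4.61 in the pooled signal but 3.14, 3.45 and 10.4 in replicates 1, 2 and 3 (5.65 ± 4.08, SD, n = 3). Sox14 was thus higher than each relative in 3 of 3 replicates. At Sox15, D and SoxN another region of the window was the strongest in some replicates. With the strongest region taken in each replicate on its own, the ratios to D were 14.6, 7.93 and 13.7 in replicates 1, 2 and 3 (12.1 ± 3.61, SD, n = 3). Those to Sox15 and SoxN were then 6.52 ± 1.95 and 13.1 ± 1.08 (SD, n = 3), and those to the other members were as above. The order of the relatives is less firm. Sox100B had relative signals of 1.94, 1.13 and 1.28, the peak of Sox21a and Sox21b 1.88, 1.52 and 0.587, and Sox102F 0.993, 1.31 and 0.909. These 3 neighbours in the order overlapped, and no pair of them kept the same order in all 3 replicates. The Sox15 window (0.789, 1.1 and 0.706) overlapped Sox102F and the peak of Sox21a and Sox21b, and its highest value was just under the lowest of Sox100B. D (0.366, 0.401 and 0.418) and SoxN (0.306, 0.299 and 0.461) overlapped each other and lay below the other members in every replicate. With the strongest region of each replicate, D had 0.404, 0.66 and 0.445 and SoxN 0.418, 0.438 and 0.461, again below the other members of the same replicate.

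**Figure D3:**
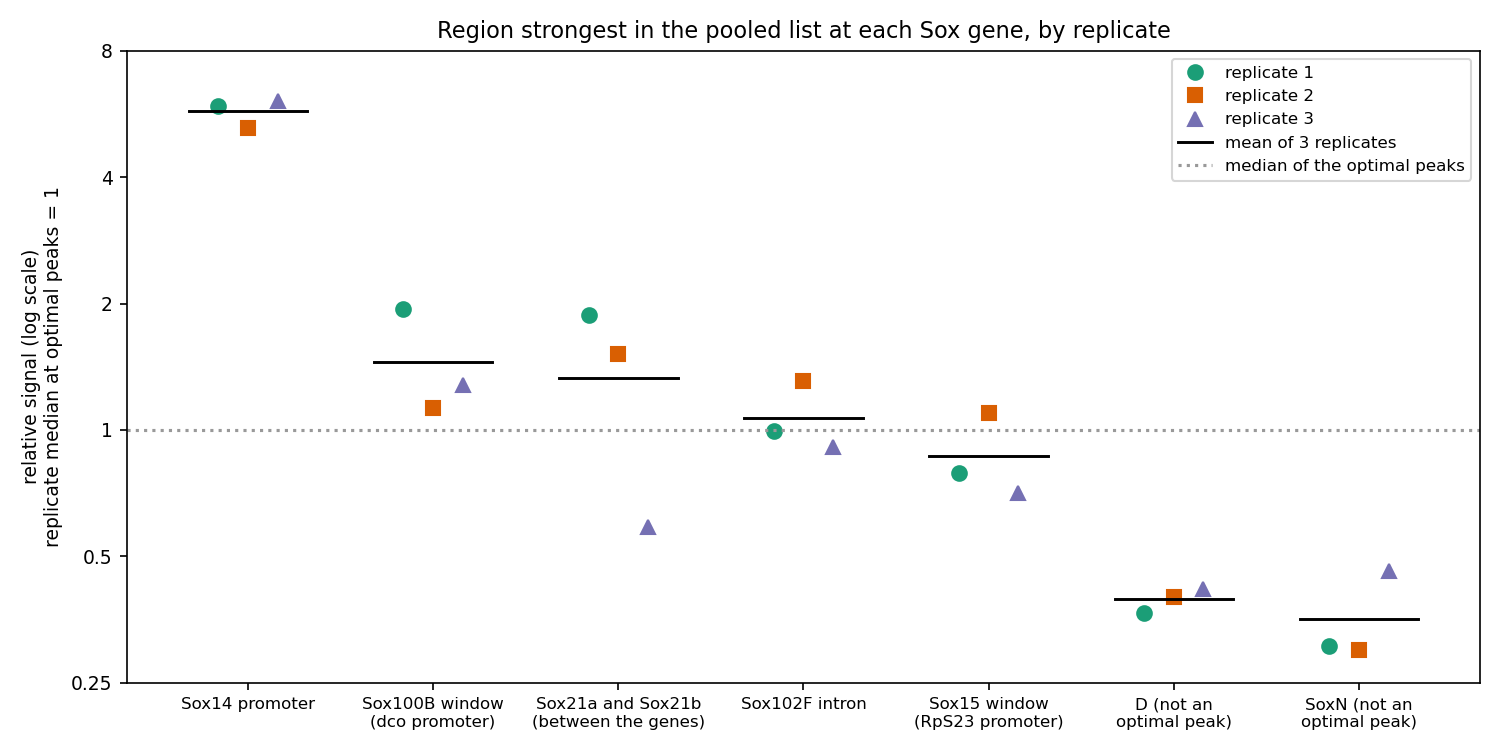
Relative signal, in replicates 1, 2 and 3 (points), of the region that was strongest in the pooled list at each Sox gene, with their mean (bar); the y axis is on a log scale, with 1 the replicate's median at the optimal peaks. The Sox14 points lie between 5.24 and 6.08, those of Sox100B, Sox21a and Sox21b, Sox102F and Sox15 between 0.587 and 1.94, and those of D and SoxN between 0.299 and 0.461.

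SoxN (FBgn0029123; 2L, 8825645 to 8829670, plus strand), the group B gene of the early neuroectoderm, stands alone, 43144 bp from CG42710 on one side and 33105 bp from CG32986 on the other. The strongest of its 6 pooled regions (2L, 8826602 to 8827011) lay in the coding sequence, with a signal of 49.9 that ranked 7331 of 30000. It measured 13.0, 10.6 and 23.6 in replicates 1, 2 and 3, or 0.355 ± 0.0917 relative to the medians (SD, n = 3). A region 241 bp upstream of the TSS reached 42.8 (rank 9561) and was matched in replicates 1 and 2 alone. All of these lie under the lowest signal of an optimal peak, 80.7, and 62.3% of coding genes had a stronger or equal pooled region in their window. The optimal peak closest to SoxN (2L, 8834797 to 8835206, signal 108.6, rank 2042) lay just outside the window, 5332 bp past the gene. SoxN has the nearest coding TSS to it, 9357 bp away.

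D (FBgn0000411; 3L, 14175610 to 14178620, minus strand), which works beside SoxN in the neuroectoderm, likewise had weak regions and no peak. Its strongest region (3L, 14170580 to 14170989, signal 51.2, rank 7014) lay just inside the window, 4825 bp past the gene, and measured 15.6, 14.3 and 21.4 in replicates 1, 2 and 3. That is 0.395 ± 0.0266 relative to the medians (SD, n = 3), and 61.4% of coding genes had as strong a pooled region. A region 1152 bp past the gene (signal 49.6, rank 7415) was matched in replicates 2 and 3 alone, at 0.66 and 0.367. The next optimal peak lay 12284 bp away, 31 bp from the TSS of nuf. The weak region 1152 bp past D is shown because it held the most matches to the Sox core ACAAT among the 4 strongest regions of each of D and SoxN. It is written from build dm6, plus strand, as the 201 bp around the summit (chr3L:14174358-14174558), with ACAAT in capitals.
D region: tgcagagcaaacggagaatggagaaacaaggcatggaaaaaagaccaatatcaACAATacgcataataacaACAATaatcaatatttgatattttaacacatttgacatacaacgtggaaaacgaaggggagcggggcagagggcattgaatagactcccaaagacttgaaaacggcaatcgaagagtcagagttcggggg
ACAAT was matched 2 times and the longer AACAAT, which contains it, also 2 times. GTCT, the Smad box, was matched 3 times, as it was in the strongest region of D. Among the 25850 pooled regions away from any optimal peak, 38.7% held ACAAT, 16.4% AACAAT and 59.4% GTCT at least 1 time. The region was picked for its ACAAT matches, so their number is a description.

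Sox21a (FBgn0036411; 3L, 14103481 to 14108118, minus strand) and Sox21b (FBgn0042630; 3L, 14112405 to 14131324, minus strand) lie 4286 bp apart, and 1 optimal peak between them (3L, 14111378 to 14111787) counts for both. Its summit at 14111583 lay 3465 bp upstream of the TSS of Sox21a and 822 bp past the 3′ end of Sox21b, 19714 bp from the nearest TSS of Sox21b. The pooled signal was 162.9, rank 981 of 3392. In replicates 1, 2 and 3 it was 80.2, 54.0 and 30.0, with ranks of 458, 720 and 3968 of 30000. Replicate 3 was thus low, and the relative signal of 1.33 ± 0.668 (SD, n = 3) had a coefficient of variation of 50.2%, the highest among the optimal peaks of the family. The summits nevertheless fell within 24 bp of one another. It was the single optimal peak in the 85.1 kb that run from Sox21a to D with their margins, where 23 pooled regions were called. Arm 3L averaged 2.42 optimal peaks per 100 kb. A weaker region lay 557 bp upstream of the first TSS of Sox21b, just outside the 500 bp of the TSS rule (signal 69.9, rank 4306, relative signal 0.558 ± 0.0646, SD, n = 3).

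The letters of the Sox21a and Sox21b peak and of the peak in the Sox100B window are shown together because both hold repeated TGGCGC, a run found in the recognition sequences of the insulator protein CTCF and of Brinker, the repressor of Dpp targets. Each is the 201 bp around the summit on the plus strand of build dm6 (chr3L:14111483-14111683 and chr3R:31061387-31061587), with TGGCGC in capitals where it stands on either strand.
Sox21a and Sox21b peak: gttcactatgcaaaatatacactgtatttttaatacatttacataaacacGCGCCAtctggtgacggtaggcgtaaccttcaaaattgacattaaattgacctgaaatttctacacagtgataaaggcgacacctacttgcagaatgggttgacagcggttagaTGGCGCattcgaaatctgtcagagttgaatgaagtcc
Sox100B window peak: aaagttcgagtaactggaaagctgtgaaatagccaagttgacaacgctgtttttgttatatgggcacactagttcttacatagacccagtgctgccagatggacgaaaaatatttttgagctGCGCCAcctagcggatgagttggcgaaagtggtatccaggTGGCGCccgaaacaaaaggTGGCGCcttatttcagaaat
TGGCGC was matched 2 times in the first and 3 times in the second, and each match also fitted the longer AGNTGGCGC. TGGCGC occurred in 9.67% of the windows around all optimal peaks and AGNTGGCGC in 2.39% (81 of 3392), while 17 held the longer run 2 or more times. Among the 25850 pooled regions away from any optimal peak the shares were 11.5% and 1.32%. These letters were searched after the windows had been read, so the matches are a description and were not tested.

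Sox100B (FBgn0024288; 3R, 31065253 to 31083407, plus strand) shares its upstream side with dco, the casein kinase Doubletime of the circadian clock and of growth control. The peak in its window (3R, 31061463 to 31061569, signal 182.1, rank 812) was narrow, at 107 bp. It lay 3766 bp from Sox100B but 277 bp from the TSS of dco, so by position it is a dco promoter peak. It measured 82.6, 40.2 and 65.4 in replicates 1, 2 and 3, was a top region in all 3, and had a relative signal of 1.45 ± 0.43 (SD, n = 3). The promoter of Sox100B held a region 465 bp upstream of the TSS with a signal of 59.7 (rank 5436), at 0.497, 0.234 and 0.509 in replicates 1, 2 and 3. A further region (3R, 31086373 to 31086782) past the 3′ end reached 70.3 (rank 4261).

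Sox102F (FBgn0039938; 4, 800436 to 834393, minus strand), on the small and largely heterochromatic chromosome 4, was the member with a peak inside the gene. The peak (4, 807365 to 807774, signal 126.6, rank 1587) lay in an intron, 223 bp upstream of an internal TSS and 26823 bp from the first. It measured 42.4, 46.6 and 46.5 in replicates 1, 2 and 3 and was a top region in all 3, with a relative signal of 1.07 ± 0.211 (SD, n = 3). This is the level of a typical optimal peak. The coefficient of variation of the relative signal, 19.7%, was near the median of 23.1% over optimal peaks. The first TSS had weaker regions, 1 of 65.9 lying 1563 bp upstream of it (0.579 ± 0.213, SD, n = 3) and 1 of 51.8 in the 5′ UTR, 39 bp from it. The peak is shown as the single one of the family with a Sox core (201 bp, build dm6, plus strand, chr4:807470-807670; ACAAT in capitals).
Sox102F peak: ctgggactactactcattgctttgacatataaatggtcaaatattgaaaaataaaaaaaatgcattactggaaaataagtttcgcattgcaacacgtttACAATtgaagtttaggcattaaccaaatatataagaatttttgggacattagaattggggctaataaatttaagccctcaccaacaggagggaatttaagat
It held 1 match to ACAAT close to the summit and none to AACAAT. The shorter motif occurred in 47.2% of the windows around all optimal peaks, so 1 match is common.

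In the window of Sox15 the signal lay at a neighbour and between the genes, while the strongest pooled region inside Sox15, in an intron, reached 46.6 (rank 8235; relative signal 0.326 ± 0.0474, SD, n = 3). The stronger of its 2 peaks lay 4156 bp upstream of Sox15 and 9 bp from the TSS of RpS23, a ribosomal protein gene, with a signal of 98.2 (rank 2441). It measured 33.6, 39.3 and 36.1 in replicates 1, 2 and 3 and was a top region in all 3 (relative signal 0.866 ± 0.21, SD, n = 3). The weaker peak, intergenic and 2536 bp upstream of Sox15, had 92.5 (rank 2728). It measured 40.6, 22.9 and 24.9 and was a top region in replicate 1 alone (0.695 ± 0.236, SD, n = 3). The region at the promoter of Sox15, 138 bp from the TSS, had 24.3 in the pooled list (rank 25837). It had no match in replicate 1, and its relative signal was 0.276 in replicate 2 and 0.493 in replicate 3, where it was above the 0.344 of the region inside Sox15. Sox15 (FBgn0005613) lies on the minus strand of 2R at 14201390 to 14212413, and the peaks at 14216364 to 14216773 and 14214744 to 14215153.

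**Figure D4:**
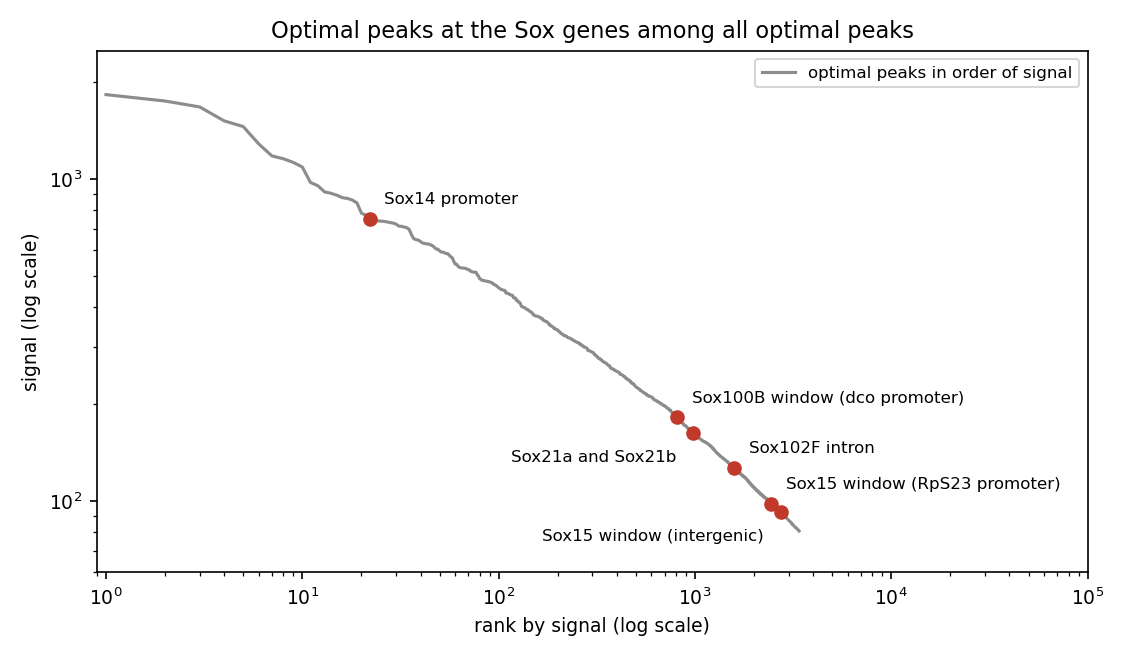
Signal of all 3392 optimal peaks (y axis, log scale) in order of rank (x axis, log scale), with the 6 optimal peaks in the windows of the Sox genes in red. The Sox14 promoter peak sits at rank 22 with 750.7, and the other 5 lie between rank 812 (182.1) and rank 2728 (92.5).

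Motifs were counted across these 6 peaks, which include those at the promoters of dco and RpS23. With 6 peaks, no difference from the share over all peaks can be read. ACAAT was matched in 1 (Sox102F) and AACAAT in 0, while 47.2% and 22.5% of all optimal peaks held them on either strand of the same 201 bp. The Smad box GTCT was matched in 2, the Sox100B window peak and the intergenic peak near Sox15, against 54.6% of all optimal peaks. GGCGCC, a GC-rich type of site bound by Mad and Brinker that can overlap TGGCGC, was matched 1 time at Sox14 and 2 times in the Sox100B window, against 4.07% of peaks. TATCGA, the core of the DNA replication-related element found at many housekeeping promoters, and GAGAG, the letters of GAGA factor, were matched in 0 of the 6, against 678 and 837 of the 3392 peaks. CAGGTA, of the Zelda type, was matched 1 time in the intergenic peak near Sox15, against 4.16%. The Sox14 window also held TGGCGC 2 times, but not within AGNTGGCGC. GC content, which sets how often such letters occur, was 45.3% at Sox14, 45.8% in the Sox100B window, 39.8% at Sox21a and Sox21b and 31.3% at Sox102F. It was 48.8% at the RpS23 promoter peak and 32.8% at the intergenic peak near Sox15, against a median of 37.8% over optimal peaks. A match is a description of letters and shows no binding.

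Other genes with an HMG box, and genes that work with Sox proteins, give a setting for these counts. Of 10 other HMG-box genes, 8 had an optimal peak in the gene or within 5 kb and 3 within 500 bp of a TSS, against 43.4% and 18.4% of all coding genes. A top region was in the window in all 3 replicates at 8, against 31.6%. Some of these peaks lay at a neighbour: 5 of the 10 held a peak or had the coding TSS nearest to it, against 18.9%. Their strongest peak, at 522.3 (rank 71; relative signal 4.0 ± 0.604, SD, n = 3), lay in an intron common to HmgD and HmgZ, abundant chromatin proteins, and counted for both. Of 15 genes that act with SoxN and D in the embryonic nervous system, 4 (26.7%) had a peak in the window and 1 (6.67%) near a TSS, and 2 had a top region in all 3 replicates. The strongest were at sli, the ligand that repels axons from the midline (144.9; 1.1 ± 0.146, SD, n = 3), and pros, a fate determinant of neural daughter cells (135.7; 1.08 ± 0.41, SD, n = 3). Each of these 2 peaks lay closer to the TSS of another gene, Rif1 at 98 bp and mgr at 5 bp. All 10 genes listed for the ecdysone response of Sox14 had a peak in the window, and 3 had one near a TSS. Of the 10, 8 held a peak or had the coding TSS nearest to it, and some of the peaks lay at the TSS of another gene. Top regions were found in the window of 10, 6 and 9 of them in replicates 1, 2 and 3, and of 6 in all 3. The strongest were at Eip75B (378.9, 20 bp from a TSS; 2.89 ± 0.267, SD, n = 3) and in an intron of Hr3 (303.7; 2.29 ± 0.724, SD, n = 3), both nuclear receptors of the ecdysone cascade. The ecdysone genes are very long, with a median of 55678 bp, against 6920 bp in the nervous system list and 8565 bp in the HMG-box list. The part of length was not tested, and nothing particular to a list is read from these counts.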

How the data were processed

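Embryos of 1 line were measured by ChIP in 3 biological replicates, numbered as in the labels; nothing further is said of how they were separated. Per the file listings, the authors made lists of 30000 regions, background included, from every replicate and from all alignments together, against a control alignment not analysed here, and derived the optimal list with an IDR threshold. The sources used here do not give the aligner, the caller, their versions or the threshold. The deposited signal is the caller's value per region, not scaled between libraries. The deposited −log10 q values stop at a highest value (3.87 for pooled regions and optimal peaks), so ranks are by signal. The deposited summit offsets were used as given, with the last base where an offset lay past the end (3 optimal peaks). The files hold no read counts, so depth is unknown and no counting interval is given; a −log10 q of 2 or more was reached by 3927, 6376 and 6410 regions in replicates 1, 2 and 3. Coordinates are dm6, set against Ensembl release 115 and RefSeq sequence of the same assembly, with Python 3.11.15, pandas 2.3.3, numpy 2.4.6 and matplotlib 3.10.9. Lists of build dm3 were not used. The counting was tested on simulated regions. Replicate regions were matched to peaks by an overlap of at least 1 bp. Motifs were counted on either strand, up to 100 bp to each side of a summit. Members and lists were chosen with earlier results of these data known, so counts and ratios carry no test. Named are all members, the genes that hold or have the nearest coding TSS to a region described, the 3 peaks ranked just above, just below and most like that of Sox14, and the 2 strongest members of each gene list; PPP1R15, Phm and the next peaks outward were named after their values were seen. Alternatives were other distances and lists, the 1696 stronger peaks, 1000 or 10000 top regions, another scaling, 50% reciprocal overlap, leaving out each replicate and, added after seeing the data, the strongest region of each replicate on its own.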

Additional observations from a re-analysis of the deposited data

How the results depend on the processing

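The number of Sox genes with an optimal peak, 6 by the main rule, depended on the distance allowed: it was 1 in the gene body, 3 within 2 kb and 3 when the peak had to lie in the gene or have its coding TSS nearest. It was 7 within 10 kb, 6 with any base of the peak counted, 6 with the pooled regions of highest signal, and 5 with the 1696 stronger peaks. To leave out a replicate, the regions shared by the remaining replicates stood in for the optimal list, which was not remade. There were 2301, 2391 and 2285 of them without replicates 1, 2 and 3. The count was then 4 to 6. Without replicate 1 or without replicate 2 it was 4, and the genes lost were Sox21a and Sox21b. Their region ranked 3968 in replicate 3, below its top regions. The mean number of Sox genes with a top region, 5.33, was 3.0 with 1000 regions per replicate, 7.67 with 10000, 1.0 in the gene body, 2.67 within 2 kb and 6.0 within 10 kb, and 5.0 to 6.0 without each replicate. The relative signal of the Sox14 peak, 5.74, was 5.8 with the other scaling, 5.74 with reciprocal overlap and 5.57 to 5.99 without each replicate. Its ratio to the next Sox gene, 4.12, is to the peak at the dco promoter in the Sox100B window. The ratio to this peak was 3.96 from mean relative signals, 4.12 within 10 kb and 3.63 to 4.7 without each replicate. Without replicate 3 the peak of Sox21a and Sox21b (1.88 and 1.52) was the next, but Sox100B (1.94 and 1.13) was kept. Within 2 kb the next peak was that of Sox21a and Sox21b (162.9), and the ratio was 4.61. An alternative chosen after seeing the data took the strongest region of any other Sox gene in each replicate on its own. The ratio was then 3.75 ± 0.889 (SD, n = 3), with Sox21a and Sox21b next in replicate 2. The gene body gave no ratio, since the Sox14 peak lies outside the gene. A wider distance takes in every peak of a narrower one, so the counts cannot fall as it grows. What else moves them with distance was not tested. No paired analysis was possible because all samples form 1 group. Unknown depth limits what can be said of the weak regions at SoxN and D.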

Other observations

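The Sox102F window held 5 pooled regions but 11, 12 and 13 regions in replicates 1, 2 and 3. Chromosome 4 as a whole held 160 pooled regions against 150, 245 and 230 in the replicates. The window of Sox14, whose gene is shorter, held 11 pooled regions and 8, 11 and 11 in the replicates.

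In the peak of Sox21a and Sox21b the replicates disagreed more than at any other optimal peak of the family, with 1.88, 1.52 and 0.587 in replicates 1, 2 and 3. In the same replicates the weaker region upstream of the first TSS of Sox21b gave 0.541, 0.629 and 0.503. The cause of the low value in replicate 3 was not tested.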
